A study of Rattus norvegicus with 9 samples.

Results

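Cytosolic heat shock proteins are the chaperones that fold, hold and refold proteins outside the membrane-bound compartments of the cell. They are described here in INS-1E cells, an insulin-secreting line derived from a rat insulinoma, through 9 genes chosen by name: Hspa8, Hspa4 and Hsph1 (HSP70 and HSP110 families), Hsp90aa1 and Hsp90ab1 (HSP90), Dnaja1 and Dnajb1 (J proteins), Hspb1 (small HSP) and Hsf1 (transcription factor). Of these, 8 were among the 20645 genes of the table, and all 8 passed the filter on low values. The expression of Hspb1 was not analysed here, and only its promoter was searched. The 3 groups were cells given fatty-acid-free BSA (BSA group), 0.5 mM palmitic acid (PA group), or 0.5 mM palmitic acid plus 50 µM cyanidin-3-O-glucoside, an anthocyanin pigment (PA + C3G group). Cells were harvested at 24 h, and mRNA was sequenced from 3 replicates in each group. The labels do not give the doses, which come from the study's methods. By those methods no group analysed here received C3G without PA, though the titles of the PA + C3G group name C3G alone. The cells are 1 tumour line and not whole islets. The study's methods state biological replication for its experiments in general, but neither they nor the labels say whether these RNA samples came from separate cultures. If they did not, the p-values measure only the spread between these samples, which may be technical.

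HSP70 proteins bind unfolded stretches in cycles of ATP binding and hydrolysis. J proteins start the cycle by stimulating hydrolysis, HSP110 proteins and BAG proteins end it by exchanging the nucleotide, and clients such as kinases and steroid receptors can then be passed to HSP90. HSF1 is the transcription factor that raises many of these genes after heat or other protein damage by binding heat shock elements, inverted repeats of the letters GAA. A beta cell makes secretory proteins in bulk and folds them in the ER, where related chaperones under other regulators do the same work.

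Libraries held from 45559993 to 66730721 estimated counts, and the counts of the members lay between 1752 and 160304. Low counts piled up at multiples of 4, and whether these are independent fragments is not given. Beta cell markers were present (11 of 12 listed were in the table), and their summed FPKM was 49200 to 49900 with BSA, 22400 to 22900 with PA and 46800 to 52400 with PA + C3G. Ins1 was the largest part of that sum, at 24600 to 27700, 13000 to 14300 and 29200 to 36200 in the same order. Single markers differed from the sum. Ins2 was at 12800 to 15300, 1750 to 2100 and 6360 to 7700, and Slc2a2 at 490 to 527, 100 to 107 and 168 to 178. Abcc8 was higher with PA, at 112 to 117, 146 to 157 and 144 to 160. Of 20 markers of other pancreatic or stromal cell types, 11 were in the table and 8 of them stayed under 1 FPKM in every library. The alpha cell hormone Gcg ranged from 1.35 to 31.2 FPKM, and the sum of these markers was 12.8 to 34.4 with BSA, 6.83 to 11.0 with PA and 8.19 to 26.1 with PA + C3G. In bulk RNA, fewer cells of a type and less RNA per cell cannot be told apart. The part of these shifts in the results was not tested.

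The promoters of 7 of the 9 members were matched in RefSeq by symbol (build GRCr8), and Hsp90aa1 and Hsf1 had no entry. Each window holds the 250 bases before the gene start. The letters searched were TTCNNGAA and GAANNTTC, each its own reverse complement and so found on both strands at once. A 3-unit element is a TTCNNGAA followed directly by NNTTC, or its reverse complement, a GAANNTTC followed by NNGAA, and so holds both shorter motifs overlapping. Of 33469 RefSeq promoters, 13.5% held at least 1 of the shorter motifs and 0.663% a 3-unit element. Among the members, 5 of 7 held a shorter motif and 2 of 7, Hspa8 and Hsph1, a 3-unit element. The 5 include Hspb1, which had 2 GAANNTTC and is not printed. The windows printed here are those of the measured members with a match, and of Hsp90ab1, the most abundant member, for contrast. Capitals mark the matches. Their positions are chr8:50080264-50080513 on the + strand for Hspa8, chr12:10427118-10427367 on the + strand for Hsph1, chr5:60638154-60638403 on the + strand for Dnaja1, chr19:41431142-41431391 on the - strand for Dnajb1 and chr9:22930173-22930422 on the + strand for Hsp90ab1.
Hspa8: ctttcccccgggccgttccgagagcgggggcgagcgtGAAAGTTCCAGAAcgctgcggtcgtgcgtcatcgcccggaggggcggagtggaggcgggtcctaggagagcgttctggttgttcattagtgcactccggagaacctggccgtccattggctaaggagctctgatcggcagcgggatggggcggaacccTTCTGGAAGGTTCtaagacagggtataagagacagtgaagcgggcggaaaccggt
Hsph1: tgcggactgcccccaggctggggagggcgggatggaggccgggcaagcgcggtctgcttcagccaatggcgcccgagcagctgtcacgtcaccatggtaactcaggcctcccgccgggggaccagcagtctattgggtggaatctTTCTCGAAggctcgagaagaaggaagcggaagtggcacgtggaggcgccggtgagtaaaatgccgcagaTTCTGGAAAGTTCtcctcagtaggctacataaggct
Dnaja1: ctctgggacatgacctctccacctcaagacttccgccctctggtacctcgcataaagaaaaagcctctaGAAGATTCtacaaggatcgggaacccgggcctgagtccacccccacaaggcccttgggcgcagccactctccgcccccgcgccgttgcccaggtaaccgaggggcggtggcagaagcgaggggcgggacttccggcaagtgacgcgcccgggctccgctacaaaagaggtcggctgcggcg
Dnajb1: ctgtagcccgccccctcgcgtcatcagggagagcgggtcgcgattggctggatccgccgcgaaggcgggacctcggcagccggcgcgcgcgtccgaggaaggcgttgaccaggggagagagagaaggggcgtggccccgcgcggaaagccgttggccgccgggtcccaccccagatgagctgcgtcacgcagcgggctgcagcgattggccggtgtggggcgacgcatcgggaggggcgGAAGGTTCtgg
Hsp90ab1: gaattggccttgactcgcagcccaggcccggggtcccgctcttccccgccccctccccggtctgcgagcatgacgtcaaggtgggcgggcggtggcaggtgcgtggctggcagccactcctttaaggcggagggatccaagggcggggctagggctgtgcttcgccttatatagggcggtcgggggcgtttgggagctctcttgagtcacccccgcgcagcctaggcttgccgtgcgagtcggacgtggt

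Hspa8 had 2 of the 3-unit elements, with first bases 213 and 55 bases before the start. Hsph1 had 1, whose first base was 36 bases before the start, and a separate TTCNNGAA at 105. Dnaja1 and Dnajb1 had a single GAANNTTC each, at 181 and 11 bases. Hsp90ab1 and Hspa4 had no match in the window, which says only that these letters are not in it. A match is a description of the sequence and does not show that HSF1 was bound there in these cells.

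Hsp90ab1, the constitutive HSP90, was the most abundant member per length in every group, with 890 ± 13.0 FPKM (SD, n = 3) in the BSA group, which was 55.4% of the summed FPKM of the 8 members. Dnaja1 and Hspa8 followed in the BSA group, with means of 219 and 200 FPKM and ranges that overlapped. Below them came Hsp90aa1, Hspa4, Hsph1, Hsf1 and Dnajb1, each with a range apart from its neighbours. In the PA group Hspa8 (226 FPKM) stood above Dnaja1 (166 FPKM) and Hsf1 (28.4 FPKM) above Hsph1 (23.9 FPKM), and neither pair overlapped. The summed FPKM of the 8 members was 1608 ± 32.5 (SD, n = 3) with BSA, 1467 ± 33.6 with PA and 1279 ± 12.7 with PA + C3G. These are levels relative to each library's fragments and scaled to gene length, and the sum is ruled by Hsp90ab1.

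**Figure D1:**
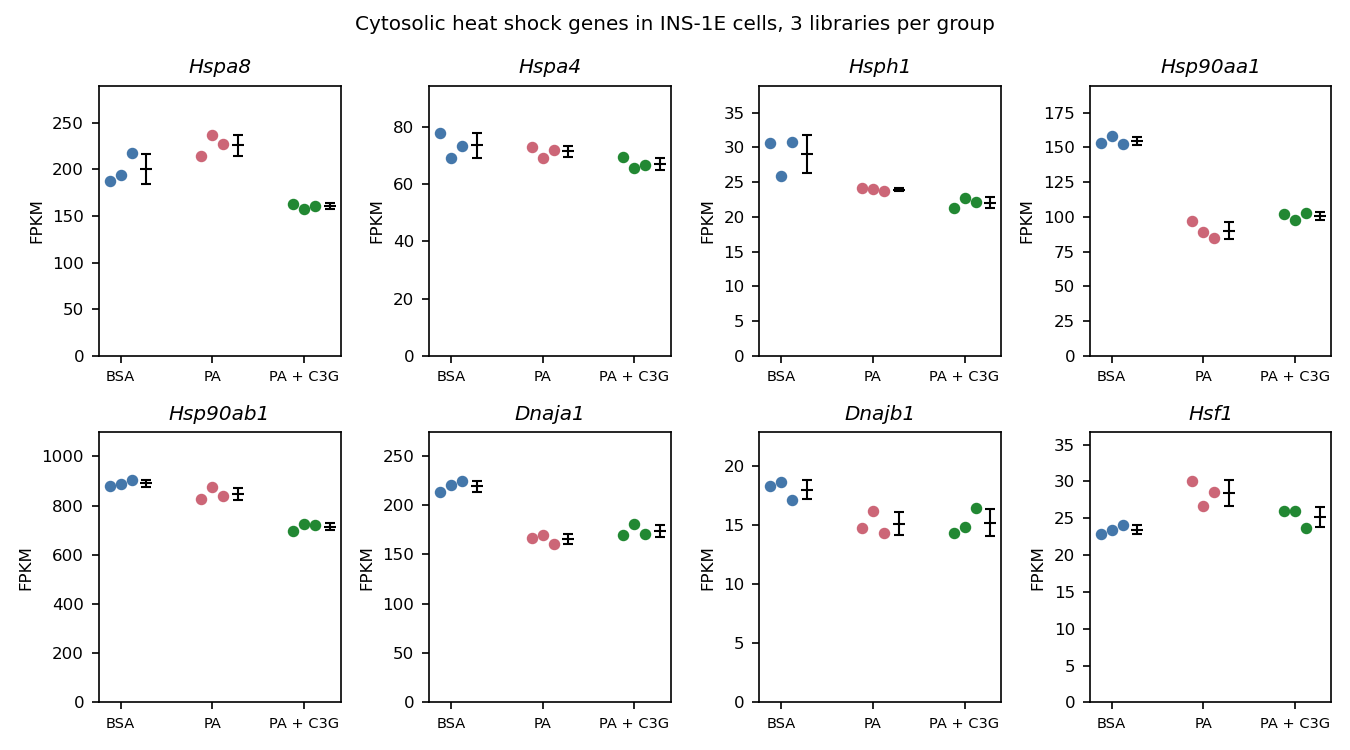
FPKM of each measured member (y axis, from 0) in the BSA, PA and PA + C3G groups (x axis). Points are the 3 libraries of a group, and the bar beside them is the mean with its SD. Hsp90aa1 and Dnaja1 lie lower in both PA-treated groups than in the BSA group, Hspa8 and Hsp90ab1 are lowest in the PA + C3G group, and Hspa4 overlaps between all groups.

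Compared to the BSA group, the PA group had lower Hsp90aa1 (1.68-fold), Dnaja1 (1.30-fold), Hsph1 (1.19-fold) and Dnajb1 (1.17-fold), and higher Hsf1 (1.23-fold) and Hspa8 (1.15-fold). Hsp90ab1 and Hspa4 did not pass the test. By edgeR's quasi-likelihood test over all 12958 genes tested, with Benjamini-Hochberg adjustment and calls at an adjusted p-value under 0.05, 6 of 8 members were called, 2 higher and 4 lower. In this comparison 51.0% of all genes tested were called (25.8% higher and 25.2% lower). The median log2 fold change of the 8 members was −0.14, and that of all genes tested was 0.0030. None of the 8 reached the study's criterion for a DEG (fold change over 2 and unadjusted p-value under 0.05), which 7.56% of genes met. With edgeR 6 of 8 members had an unadjusted p-value under 0.05, where 56.7% of all genes did, all with changes smaller than 2-fold, and DESeq2 and limma also gave 0 members by the fold criterion.

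Compared to the PA group, the PA + C3G group had lower Hspa8 (1.37-fold) and Hsp90ab1 (1.16-fold) and higher Hsp90aa1 (1.15-fold). The same edgeR test called 3 of 8 members, 1 higher and 2 lower, where 21.2% of all genes tested were called (11.1% higher and 10.2% lower). The median log2 fold change was −0.07 for the members and −0.00073 for all genes tested. The count by the fold criterion was 0 of 8 with edgeR, DESeq2 and limma, against 1.13% of all genes, and 5 of 8 members had an unadjusted p-value under 0.05 with edgeR, where 34.1% of all genes did. The counts of calls in each direction moved with the scaling, while no called member changed direction. After rescaling to the same FPKM sum 0 members were higher and 3 lower, and over all genes 775 were higher and 2525 lower in place of 1436 and 1316, with a median log2 fold change of −0.09. With limma on log2(FPKM + 1) 0 members were higher and 2 lower, and 1065 genes were higher and 1636 lower. Any 2 of the 3 comparisons share 3 libraries, and they are not independent of each other.

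Compared to the BSA group, the PA + C3G group had lower Hsp90aa1 (1.47-fold), Hsph1 (1.26-fold), Dnaja1 (1.21-fold), Hsp90ab1 (1.19-fold) and Hspa8 (1.19-fold) and higher Hsf1 (1.12-fold). This made 6 of 8 members called by edgeR, 1 higher and 5 lower, where 36.9% of all genes tested were called (19.0% higher and 17.9% lower). The members' median log2 fold change was −0.26, and that of all genes tested was 0.0067. By the fold criterion the count was again 0 of 8 with edgeR, DESeq2 and limma, against 4.63% of all genes, and 7 of 8 had an unadjusted p-value under 0.05 with edgeR, where 45.9% of all genes did. After rescaling to the same FPKM sum 0 members were higher and 6 lower, and over all genes 1891 were higher and 3038 lower in place of 2462 and 2321. Limma on log2(FPKM + 1) likewise gave 0 and 6 members, and 1850 and 3091 genes.

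**Figure D2:**
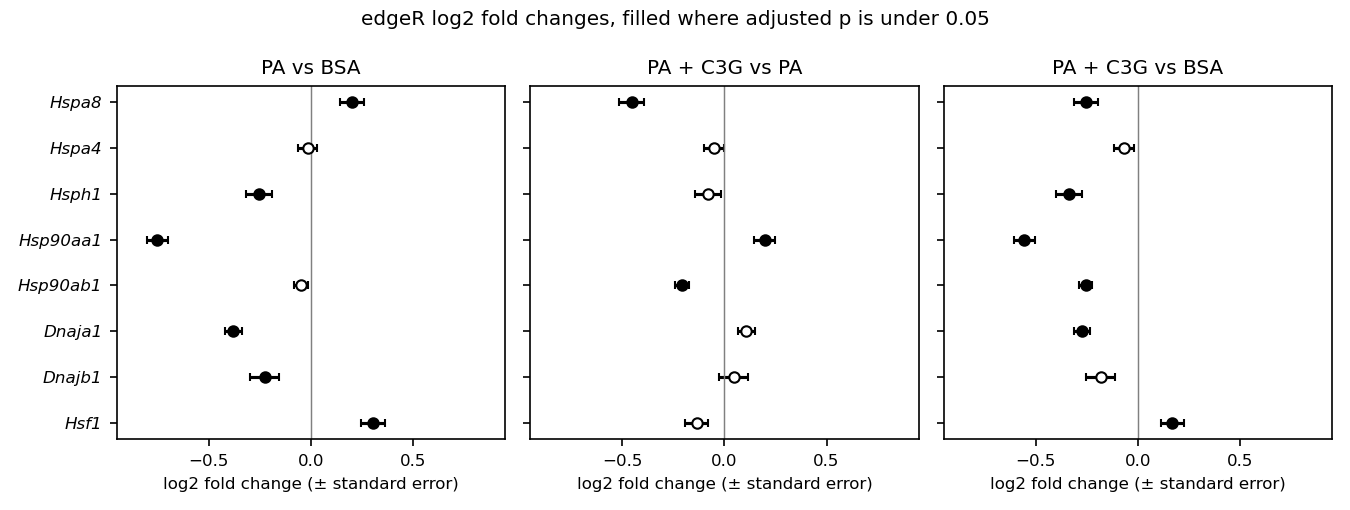
Log2 fold changes of the 8 measured members from edgeR (x axis), with bars of 1 standard error, for the 3 comparisons. Filled points have an adjusted p-value under 0.05. Hsp90aa1 lies at −0.75 for PA against BSA and Hspa8 at −0.45 for PA + C3G against PA, the points farthest from 0 in those comparisons.

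Hsp90aa1 (ENSRNOG00000059714, 6:135107271-135112775 on the - strand in the authors' table, whose genome build is not given in the sources used here) encodes HSP90 alpha, the more inducible of the cytosolic HSP90 proteins. Its FPKM was 153, 158 and 153 in the BSA libraries, 96.9, 89.1 and 84.6 in the PA libraries and 102, 97.4 and 103 in the PA + C3G libraries. Every PA library and every PA + C3G library was below every BSA library, and the PA + C3G libraries were all slightly above the PA libraries. The log2 fold change was −0.75 ± 0.05 (SE, edgeR adjusted p = 1.9e-06) for PA against BSA and 0.20 ± 0.05 (adjusted p = 0.0228) for PA + C3G against PA. For PA + C3G against BSA it was −0.56 ± 0.05 (edgeR adjusted p = 2.7e-05). The gain with C3G did not pass under rescaling to the same FPKM sum (0.11, adjusted p = 0.143), in limma on log2(FPKM + 1) (0.16, adjusted p = 0.0508) or on log2(FPKM + 0.1) (0.16, adjusted p = 0.0512), or without PA replicate 2 (0.19), PA replicate 3 (0.15), PA + C3G replicate 1 (0.18) or PA + C3G replicate 3 (0.18).

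Hsp90ab1 (ENSRNOG00000019834, 9:17817721-17823243 on the + strand) encodes HSP90 beta, the constitutive form. Its FPKM was 878, 889 and 904 in the BSA libraries, 828, 875 and 838 in the PA libraries and 698, 724 and 722 in the PA + C3G libraries. The PA + C3G libraries lay below all others, while the PA libraries lay just under the BSA libraries. The log2 fold change was −0.05 ± 0.03 (SE, edgeR adjusted p = 0.266) for PA against BSA and −0.21 ± 0.03 (adjusted p = 0.00268) for PA + C3G against PA. For PA + C3G against BSA it was −0.26 ± 0.03 (edgeR adjusted p = 0.00026). Quantile normalization with limma moved the first 2 values, to −0.38 (adjusted p = 4.3e-05) and −0.03 (adjusted p = 0.642).

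Hspa8 (ENSRNOG00000034066, 8:44990014-44993179 on the + strand) encodes HSC70, the constitutive HSP70 whose promoter held the pair of 3-unit elements printed above. Its FPKM was 187, 194 and 218 in the BSA libraries, 214, 236 and 227 in the PA libraries and 163, 157 and 161 in the PA + C3G libraries. BSA replicate 3 overlapped the PA libraries, and the PA + C3G libraries lay below every other library. The log2 fold change was 0.20 ± 0.06 (SE, edgeR adjusted p = 0.0191) for PA against BSA, −0.45 ± 0.06 (adjusted p = 0.00108) for PA + C3G against PA and −0.25 ± 0.06 (adjusted p = 0.00851) for PA + C3G against BSA. The rise with PA was lost after quantile normalization (0.13, adjusted p = 0.121) and without BSA replicate 1 (0.15), BSA replicate 2 (0.17) or PA replicate 2 (0.16), and the fall with C3G was called under each alternative run.

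Reads of Hspa8 and Hsp90aa1 could be split between near-identical gene entries, which limits the level given to either gene. The table holds 3 entries described as similar to heat shock protein 8 (LOC688655, LOC680121 and LOC688932), and Hspa8 took 49.4% to 67.7% of the estimated counts summed over the 4. Of these entries the pseudogene LOC688655 differed most between libraries, with FPKM of 85.8, 72.0 and 163 in the BSA libraries, 125, 172 and 35.4 in the PA libraries and 25.4, 26.5 and 23.4 in the PA + C3G libraries. Its log2 fold change for PA + C3G against PA was −2.11 ± 0.50 (SE, edgeR adjusted p = 0.0163), and its PA libraries spread widely, with replicate 3 far below the others. Hsp90aa1 took 55.4% to 68.9% of the counts it shared with LOC103692716, described as HSP90 alpha itself, and LOC680491.

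With the entries summed, Hspa8 stood at 786 ± 76.6 CPM (estimated counts scaled to library size by TMM, SD, n = 3) with BSA, 826 ± 116 with PA and 567 ± 60.5 with PA + C3G. The rise with PA was then not called (log2 fold change 0.07, edgeR adjusted p = 0.625), and the fall with C3G was (−0.54, adjusted p = 0.00857, and −0.47 for PA + C3G against BSA). A further 2 entries without a description carried the same 33 GO terms as LOC680121, and adding them gave 0.03 for PA against BSA and −0.48 for PA + C3G against PA (adjusted p = 0.00464). Summed Hsp90aa1 stood at 752 ± 35.4 CPM with BSA, 443 ± 15.7 with PA and 483 ± 46.5 with PA + C3G. Its fall with PA was called (−0.76, adjusted p = 1.0e-05), and its gain with C3G was not (0.12, adjusted p = 0.227). These sums were chosen after the data were seen.

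**Figure D3:**
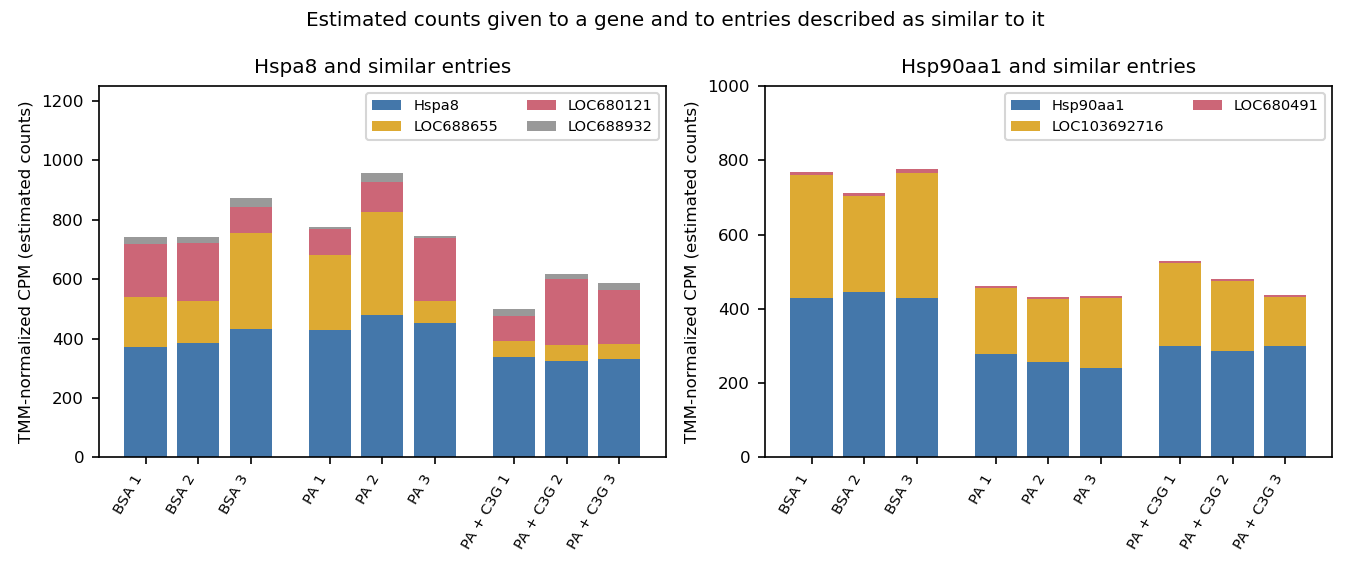
Estimated counts as CPM after TMM normalization (y axis, from 0) given to Hspa8 (left) or Hsp90aa1 (right) and to the entries described as similar to each, stacked for each of the 9 libraries. The Hspa8 stacks are lowest in the PA + C3G libraries (499.5 to 616), while the share of each entry changes between libraries of 1 group.

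Hspa4 and Hsph1 encode HSP110 proteins, the nucleotide exchange factors of cytosolic HSP70. Hspa4 (ENSRNOG00000016596, 10:38601624-38642397 on the - strand) had FPKM of 77.8, 69.1 and 73.4 in the BSA libraries, 73.1, 69.1 and 71.9 in the PA libraries and 69.4, 65.4 and 66.5 in the PA + C3G libraries. The groups overlapped in every comparison, and its log2 fold change for PA against BSA was −0.02 ± 0.05 (SE, edgeR adjusted p = 0.795). It was −0.05 ± 0.05 (edgeR adjusted p = 0.491) for PA + C3G against PA and −0.07 ± 0.05 (adjusted p = 0.293) for PA + C3G against BSA. Hsph1 (ENSRNOG00000000902, 12:6322668-6341902 on the - strand) had FPKM of 30.6, 25.9 and 30.7 in the BSA libraries, 24.1, 23.9 and 23.7 in the PA libraries and 21.2, 22.7 and 22.2 in the PA + C3G libraries. All libraries given PA were below those given BSA alone. Its log2 fold change was −0.26 ± 0.06 (SE, edgeR adjusted p = 0.00785) for PA against BSA, −0.08 ± 0.06 (adjusted p = 0.415) for PA + C3G against PA and −0.34 ± 0.06 (adjusted p = 0.00266) for PA + C3G against BSA.

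Dnaja1 and Dnajb1 encode J proteins that hand clients to HSP70, and Dnajb1 is also known as HSP40. Dnaja1 (ENSRNOG00000007029, 5:57028467-57039378 on the + strand) had FPKM of 213, 220 and 224 in the BSA libraries, 167, 170 and 160.5 in the PA libraries and 170, 181 and 170 in the PA + C3G libraries. The BSA libraries stood clear above the rest, and the PA + C3G libraries were just above the PA libraries. Its log2 fold change was −0.38 ± 0.04 (SE, edgeR adjusted p = 4.2e-05) for PA against BSA and 0.11 ± 0.04 (adjusted p = 0.0983) for PA + C3G against PA. For PA + C3G against BSA it was −0.27 ± 0.04 (edgeR adjusted p = 0.00065). Dnajb1 (ENSRNOG00000021824, 19:24747178-24750919 on the + strand) had FPKM of 18.3, 18.6 and 17.1 in the BSA libraries, 14.7, 16.2 and 14.4 in the PA libraries and 14.3, 14.8 and 16.5 in the PA + C3G libraries. The PA and PA + C3G libraries were intermixed, all below the BSA libraries. Its log2 fold change for PA against BSA was −0.23 ± 0.07 (SE, edgeR adjusted p = 0.0241), a call lost without BSA replicate 1 (−0.23), BSA replicate 2 (−0.21), PA replicate 1 (−0.21) or PA replicate 3 (−0.19). For PA + C3G against BSA it was −0.18 (adjusted p = 0.0751), which passed on rescaling to the same FPKM sum (−0.24, adjusted p = 0.0258), in limma on log2(FPKM + 1) (−0.23, adjusted p = 0.0233) and without PA + C3G replicate 3 (−0.25, adjusted p = 0.0362).

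Hsf1 (ENSRNOG00000021732, 7:117538523-117565478 on the + strand), the heat shock transcription factor, had FPKM of 22.8, 23.4 and 24.1 in the BSA libraries, 30.1, 26.6 and 28.6 in the PA libraries and 26.0, 26.0 and 23.7 in the PA + C3G libraries. The PA libraries were above all others, and PA + C3G replicate 3 fell within the BSA range. Its log2 fold change was 0.30 ± 0.06 (SE, edgeR adjusted p = 0.00152) for PA against BSA, −0.14 ± 0.06 (adjusted p = 0.124) for PA + C3G against PA and 0.17 ± 0.06 (adjusted p = 0.0433) for PA + C3G against BSA. The last call was lost without any 1 of BSA replicate 1 (0.14), BSA replicate 2 (0.16), BSA replicate 3 (0.18), PA replicate 3 (0.17), PA + C3G replicate 1 (0.14) or PA + C3G replicate 2 (0.14), with no filter (0.17, adjusted p = 0.0574), in limma on log2(FPKM + 1) (0.10, adjusted p = 0.195) and after quantile normalization (0.16, adjusted p = 0.0519). Rescaling to the same FPKM sum moved the values to −0.23 (adjusted p = 0.0185) for PA + C3G against PA and 0.11 (adjusted p = 0.171) for PA + C3G against BSA. These are transcript levels, and the activity of HSF1 depends on its protein state, which was not measured here.

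Ratios of 2 genes within a library do not depend on the scaling between libraries, though those with Hspa8 or Hsp90aa1 depend on how reads were split with the similar entries. Against its ER relative Hspa5 (BiP, the HSP70 of the ER), Hspa8 had an FPKM ratio of 0.577 to 0.620 in the BSA libraries, 0.196 to 0.218 in the PA libraries and 0.206 to 0.211 in the PA + C3G libraries. The ratio was therefore 2.90-fold lower with PA, and the PA + C3G libraries fell within the PA range. Against Hsp90b1 (GRP94, the HSP90 of the ER), Hsp90ab1 had a ratio of 2.27 to 2.81 in the BSA libraries, 1.03 to 1.12 in the PA libraries and 1.05 to 1.22 in the PA + C3G libraries, again with overlap only between both groups given PA. The ratio of Hsp90aa1 to Hsp90ab1 was 0.174 ± 0.00452 (SD, n = 3) with BSA, 0.107 ± 0.00905 with PA and 0.141 ± 0.00603 with PA + C3G, with no overlap between any groups.

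The difference in the log2 ratio of Hsp90aa1 to Hsp90ab1 was −0.71 for PA against BSA, 0.41 for PA + C3G against PA and −0.30 for PA + C3G against BSA. Each gave an exact two-sided permutation p of 0.1, the smallest that 3 libraries against 3 allow (0.15 adjusted by Benjamini-Hochberg over the 15 ratio tests), so no ratio could pass 0.05. The ratio of Hsph1 to Hspa4 was 0.374 to 0.419 in the BSA libraries, 0.329 to 0.347 in the PA libraries and 0.306 to 0.348 in the PA + C3G libraries. The ratio of Dnajb1 to Dnaja1 was 0.0763 to 0.0858, 0.0882 to 0.0957 and 0.0820 to 0.0966 in the same order. Both ratios separated the PA group from the BSA group and neither separated the PA + C3G group from the PA group.

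**Figure D4:**
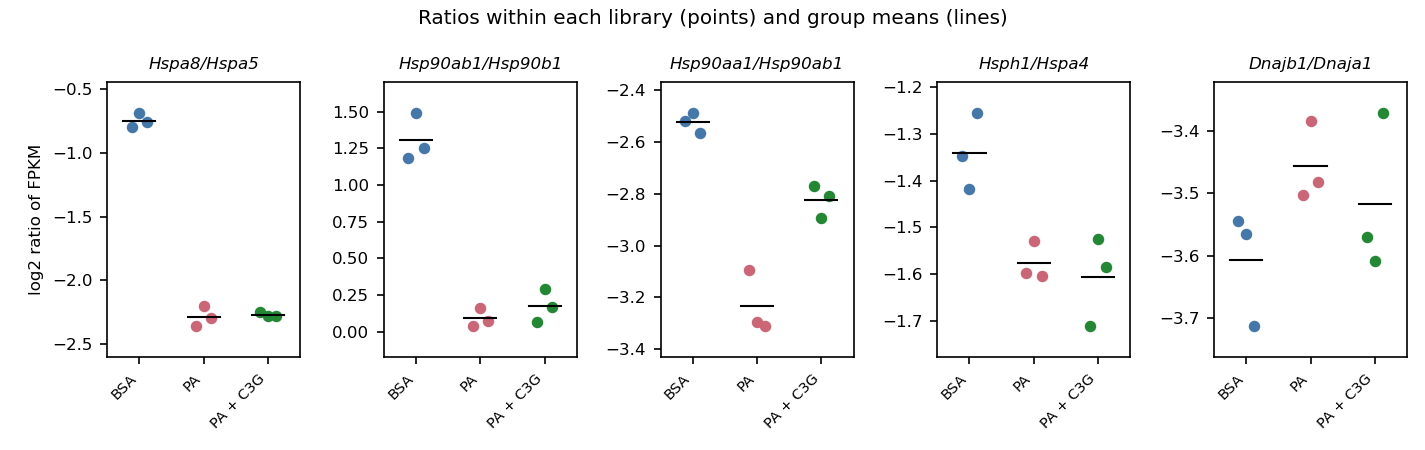
Log2 ratios of FPKM within each library (y axis, a separate scale per panel) for 5 gene pairs in the BSA, PA and PA + C3G groups (x axis). Points are libraries and lines are group means. The ratio of Hsp90aa1 to Hsp90ab1 separates all 3 groups, while the ratios to the ER relatives separate the BSA group only.

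Beyond the members, 64 of 76 listed genes of the cytosolic chaperone system were tested. For PA against BSA, 15 were higher and 24 lower by edgeR, which is 60.9% called where 51.0% of all genes tested were, with a median log2 fold change of −0.08. Rescaling to the same FPKM sum gave 17 higher and 18 lower. For PA + C3G against PA 8 were higher and 9 lower, or 26.6% where 21.2% of all genes were, with a median of −0.0027. This near-even split depended on the scaling, and became 1 higher and 20 lower after rescaling to the same FPKM sum, 2 and 16 with limma on log2(FPKM + 1), 3 and 16 with limma on log2(FPKM + 0.1), and 5 and 9 after quantile normalization. Of the 8 genes called higher with C3G, Hspa2 alone was called after rescaling to the same FPKM sum. The second count, 17 in all, fell to 8 without PA replicate 1, 9 without PA replicate 2, 8 without PA replicate 3, 6 without PA + C3G replicate 1, 8 without PA + C3G replicate 3 and 10 with no filter.

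Among the partners of HSP70, Bag3, a heat-inducible nucleotide exchange factor, fell from 30.8 ± 1.15 FPKM (SD, n = 3) in the BSA group to 16.4 ± 0.64 in the PA group and stood at 18.0 ± 0.72 in the PA + C3G group (log2 fold change for PA against BSA −0.88, edgeR adjusted p = 4.8e-07). Of the other cytosolic HSP70 and HSP110 genes 4 were tested. With PA 75.0% of them were called and with C3G 50.0%, where 51.0% and 21.2% of all genes tested were. Lower with PA were 3 of the 4: Hspa2 (−1.40), Hspa14 (−0.69) and Hspa4l (−0.36). Of these, Hspa2 and Hspa14 were higher in the PA + C3G group than in the PA group, at 0.70 and 0.17. Hspa14 was not called after rescaling to the same FPKM sum (0.08), and neither was called with limma on log2(FPKM + 1), at 0.38 for Hspa2 and 0.13 for Hspa14. Hspa2 was low, at 2.71, 1.01 and 1.60 FPKM in the BSA, PA and PA + C3G groups. Hspa1b, the classical heat-inducible HSP70 and named after its values were seen, averaged 5.64 FPKM and had a log2 fold change of 0.72 ± 0.29 (SE, edgeR adjusted p = 0.0673) with PA. St13 and Bag1, which bind HSP70, rose with PA by 0.40 and 0.42 on the log2 scale. With C3G St13 was lower (−0.25, edgeR adjusted p = 0.0025) and Bag3 higher (0.17, adjusted p = 0.0312). Bag3 was not called after rescaling to the same FPKM sum (0.08). Of the 9 exchange factors and partners of HSP70 tested, 3 were higher and 2 lower with PA, and 1 higher and 1 lower with C3G. That is 55.6% called with PA and 22.2% with C3G, against the same shares of all genes.

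Other J proteins moved both ways with PA, 5 higher and 5 lower of 13 tested, or 76.9% called where 51.0% of all genes tested were. Those lower included Dnajc9 (−0.50), Dnajc7 (−0.40) and Dnajc8 (−0.37), and Dnajc13 was higher (0.21). With C3G 15.4% of the 13 were called by edgeR, where 21.2% of all genes tested were. These were Dnajc7 and Dnajc8, higher than in the PA group (0.22 and 0.20), and neither was called after rescaling to the same FPKM sum (0.13 and 0.11). Dnajc8 was also not called with limma on log2(FPKM + 1) (0.16).

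Of the HSP90 cochaperones, 9 of 17 were lower and 3 higher with PA, or 6 and 4 after rescaling to the same FPKM sum. By edgeR 70.6% of the 17 were called with PA, where 51.0% of all genes tested were. Stip1, which links HSP70 to HSP90, fell from 149 to 107 FPKM (−0.45, edgeR adjusted p = 1.4e-05), Aarsd1 by 0.57 and the phosphatase Ppp5c by 0.35 on the log2 scale. Cdc37, which brings kinases to HSP90, rose by 0.21 with PA and fell by 0.16 with C3G. Aarsd1 and Ppp5c were higher with C3G, by 0.20 and 0.19. In all, 3 of the 17 cochaperones were higher and 3 lower with C3G by edgeR. That is 35.3% called, where 21.2% of all genes tested were. After rescaling to the same FPKM sum 0 were higher and 5 lower. Among the 8 subunits of the CCT chaperonin, which folds actin and tubulin, 4 were lower and 1 higher with PA, and 3 were lower with C3G (Cct5 at −0.30, Cct4 at −0.27 and Cct2 at −0.18). That is 62.5% called with PA and 37.5% with C3G, where 51.0% and 21.2% of all genes tested were. The prefoldin subunits, which deliver clients to CCT, gave 1 higher (Pfdn5, 0.25) and 1 lower (Pfdn2, −0.19, but not called after rescaling to the same FPKM sum, at −0.16) of 6 with PA, and Pfdn5 was lower with C3G (−0.16). Of the 6, 33.3% were called with PA and 16.7% with C3G, against the same shares of all genes. Hsf4, another heat shock factor, rose with PA from 2.83 to 4.16 FPKM (0.58) and fell with C3G to 3.06 (−0.40), while Hsf2 stood at 5.63, 5.23 and 4.92 FPKM in the BSA, PA and PA + C3G groups and was not called.

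Genes known to be induced by heat shock, outside the members and partly shared with the lists above, were 3 higher and 6 lower with PA of 14 tested, with a median log2 fold change of −0.14, and 2 higher with C3G. That is 64.3% called with PA and 14.3% with C3G, where 51.0% and 21.2% of all genes tested were. After rescaling to the same FPKM sum the counts with C3G were 0 higher and 1 lower. Of the small HSPs, Hspb6 alone was tested, at 15.4, 14.1 and 12.1 FPKM in the BSA, PA and PA + C3G groups, while Cryab and Hspb8 stayed at or under 0.0892 FPKM in every library.

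Of 9 ER counterparts of the same families, 8 were higher with PA by edgeR and 1 was not called, with a median log2 fold change of 1.16, and 5 were lower with C3G and 4 not called, with a median of −0.29. That is 88.9% called with PA and 55.6% with C3G, where 51.0% and 21.2% of all genes tested were. Hspa5 stood at 336 ± 29.7, 1097 ± 14.8 and 774 ± 9.60 FPKM (SD, n = 3) in the BSA, PA and PA + C3G groups, and Hsp90b1 at 361 ± 38.6, 793 ± 11.7 and 633 ± 38.6. The count of 5 with C3G was 3 without PA replicate 1, PA replicate 3, PA + C3G replicate 2 or PA + C3G replicate 3. Of 7 mitochondrial counterparts, 4 were higher and 1 lower with PA, and 2 were lower with C3G, Hspa9 (−0.19) and Dnaja3 (−0.17). By share 71.4% were called with PA and 28.6% with C3G, against the same shares of all genes. The count of 2 with C3G was 1 without PA replicate 1 or PA replicate 2, and 0 without PA replicate 3, PA + C3G replicate 2 or PA + C3G replicate 3. Hspd1, the mitochondrial HSP60, was not called in either of these comparisons (−0.08 and −0.10), though it was lower with C3G after rescaling to the same FPKM sum (−0.19) and with PA after quantile normalization (−0.14). For PA + C3G against BSA Hspd1 was called lower (−0.19, edgeR adjusted p = 0.0118).

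**Figure D5:**
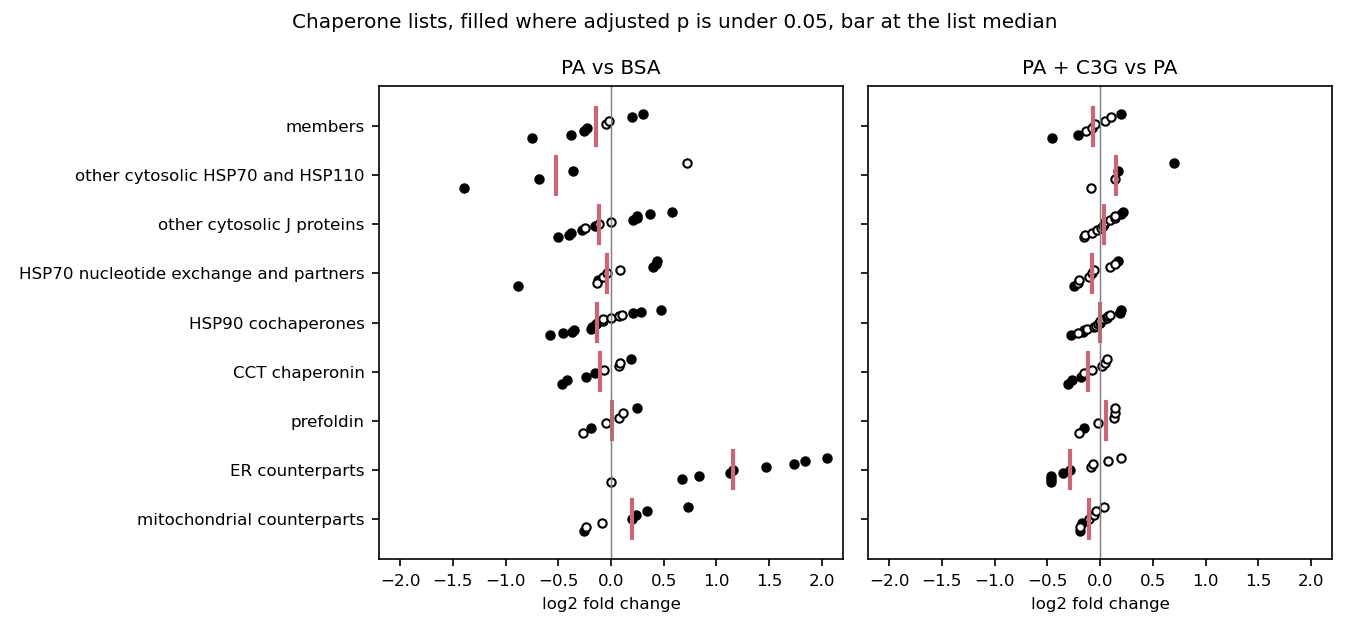
Log2 fold changes from edgeR (x axis) of each tested gene by list (y axis), for PA against BSA and PA + C3G against PA. Filled points have an adjusted p-value under 0.05 and the bar is the list median. The members and the other cytosolic lists lie on both sides of 0, while the ER counterparts have medians of 1.16 and −0.29.

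As a description across the 9 libraries, which share 3 group means, the genes with the pattern most like that of a member were found by Pearson's r of log2(FPKM + 1). For Hsp90aa1 these were Rgs3, Hnrnpf and Raly (r = 0.994 each), and for Hspa8 they were Nat8l (0.962), Actr3 (0.962) and Npm1 (0.959). Dnajb1 was most like Pdp1 (0.968), Eefsec (0.968) and Nmt2 (0.963), and Hsf1 most like Hyi (0.964), Fbxo6 (0.962) and Mia2 (0.961). The members were left out of this search, and no heat shock gene outside them was among the genes found. Only 3 genes per member were kept from the 12958 tested, so this does not show whether other heat shock genes follow the members.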

How the data were processed

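RNA-seq of INS-1E cells (3 groups, 3 libraries each) was re-analysed from the gene table the authors deposited. Per the labels, polyadenylated RNA was made into dUTP-marked libraries and sequenced in paired-end mode. The submitters' processing notes name cutadapt 1.9, HISAT2 2.0.4, StringTie 1.3.4d, DESeq2 and edgeR. The genome build, and whether reads matching several genes were split, are not given in the sources used here. The authors deposited estimated counts per gene, which are not normalized, and FPKM, which the authors scaled to gene length and library size. The counts are whole numbers and were used as deposited.

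Samples were grouped by their titles, which name control, palmitic acid or cyanidin-3-O-glucoside. That the control received BSA, and the C3G group PA as well, comes from the study's methods. The 12958 of 20645 genes whose FPKM averaged 1 or more were tested with edgeR 4.0.16 in R 4.3.3, with TMM normalization, 1 quasi-likelihood fit of all 9 libraries without covariates, and Benjamini-Hochberg adjustment. Calls are at an adjusted p-value under 0.05. Standard errors were taken from the fold change and its F statistic. The procedure was tested on simulated data with independent counts. These lacked the pile-up at multiples of 4 and reads shared between entries, so they cannot show how the procedure handles either. Ratios were compared by exact permutation tests. Totals per library lay between 45559993 and 66730721, and SDs rest on 3 libraries.

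The test was repeated with DESeq2 1.42.0, with median-ratio size factors, after rescaling to the same FPKM sum, without the filter, with a filter at a mean of 5 FPKM, with the compared groups alone, with a replicate block, with limma 3.58.1 with pseudocounts of 1 and 0.1 or after quantile normalization, with counts divided by 4 and with each library left out, and the ratios with CPM in place of FPKM. Summing near-identical entries was added after the data were seen. The members and lists were chosen with earlier results of these data known. Genes named are the members, Hspa5, Hsp90b1, Hspa9 and Hspd1, per list those with the smallest p-values (up to 3 per comparison) and the most abundant, and the 3 nearest patterns of Hspa8, Hsp90aa1, Dnajb1 and Hsf1, though not all are discussed. Promoters are from RefSeq (GRCr8), whose coordinates are not those of the table.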

Additional observations from a re-analysis of the deposited data

How the results depend on the processing

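Over the 8 members, 3 comparisons and 22 alternatives (528 values), 490 kept their direction and side of the threshold or stayed uncalled, 32 lost a call, 6 gained 1 and 0 changed the direction of a called value. The falls of Hsp90aa1, Dnaja1 and Hsph1 with PA, the rise of Hsf1 with PA and the fall of Hspa8 with C3G were called under every alternative. The number of members called ranged from 4 to 6 for PA against BSA, 2 to 3 for PA + C3G against PA and 5 to 7 for PA + C3G against BSA, and no alternative gave a member past 2-fold. For PA + C3G against PA, rescaling to the same FPKM sum called 4 mitochondrial counterparts in place of 2, and leaving out the filter called 10 other cytosolic chaperone genes in place of 17. Leaving out 1 library gave 6 to 16 other cytosolic genes, 3 to 5 ER counterparts and 0 to 3 mitochondrial counterparts in that comparison. Leaving out 1 library also leaves fewer libraries, and the cause of these changes was not tested. All 15 ratio differences moved by less than the spread between replicates when computed from CPM and without any 1 library. Neither check could have come out otherwise, so nothing is concluded from them. Gene length cancels in a difference of log2 ratios, and leaving out 1 of 3 libraries cannot move it by that spread.

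Whether equal replicate numbers pair the samples is not given in the labels or the study's methods. Same-numbered libraries correlated in their deviations from the group means at 0.104, 0.0697 and −0.0145 for PA against BSA. The values were 0.149, 0.0858 and 0.0431 for PA + C3G against PA and 0.0338, 0.0458 and −0.069 for PA + C3G against BSA. In no comparison was every pair over 0.1. Every sample correlated best with its own number for PA + C3G against PA, which is a hint from the data and not from the design, and in the other comparisons not every sample did. With the replicate block, 6, 3 and 5 members were called in the 3 comparisons, the lost call being that of Hsf1 for PA + C3G against BSA (0.17, edgeR adjusted p = 0.0554), and it changed no other call of a member.

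With 3 libraries per group, the called changes of the members ran from 1.12-fold to 1.68-fold. The genome build and the treatment of reads shared by near-identical genes are not given, so levels of Hspa8 and Hsp90aa1 are uncertain. No protein was measured in these files.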
